A study of Mus musculus with 20 samples.

Results

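Macrophages are a minor cell population of the liver, and their transcripts can be followed in bulk liver RNA through marker genes. Described here are 39 such markers of Kupffer cells and other macrophages, out of 53599 genes listed in each of the deposited count tables. They were listed by name from knowledge of liver macrophages, with earlier results of these data known, and were read from the same rows of both tables. They comprise 10 markers of resident Kupffer cells, the 3 chains of complement C1q, 16 genes of macrophages in general, 4 genes of MHC class II antigen presentation, and 6 markers of recruited monocyte-derived macrophages.

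The liver RNA came from male and female mice without PPARα, called KO, and from male and female mice that express human PPARα, called hPPARa. Each genotype drank water with 0.5% sucrose, either with 8 µM PFOA, a perfluorinated surfactant, or without it as vehicle, from weaning and for 6 to 7 weeks. All groups ate an American-type diet with 51.8% of its energy from carbohydrate, 33.5% from fat and 14.7% from protein. The KO groups held 3 male PFOA, 3 female PFOA, 3 male vehicle and 1 female vehicle libraries, and the hPPARa groups held 3 male PFOA, 2 female PFOA, 2 male vehicle and 3 female vehicle libraries. PPARα is a nuclear receptor that many perfluorinated acids can activate. KO livers are set against hPPARa livers, and PFOA livers against vehicle livers of the same genotype, and no group of ordinary wild-type mice is analysed here. The promoter that drives human PPARα and the cells that express it are not stated in the labels.

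Kupffer cells are the macrophages that reside in the liver sinusoids. They clear bacteria, complement-coated particles, dying cells and old red cells through a set of scavenger and complement receptors, and they keep their numbers largely by local division under the growth factor Csf1. The transcription factor PU.1, encoded by Spi1, sets up the macrophage programme. When the liver is injured, blood monocytes that carry Ccr2 can enter and become macrophages that lack the resident receptors or gain them slowly. In bulk tissue, fewer cells of a type and less RNA per cell cannot be told apart, and this holds for every level below.

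The core of the motif that PU.1 binds, GAGGAA or its reverse complement TTCCTC, was searched on both strands of the 250 bases before each gene's start in the RefSeq promoter windows of mouse build GRCm38.p6. Of 32851 windows, 23.3% held it, and of the 30 members with a window, 13 held it: 3 of 8 resident markers, 2 of 2 C1q chains, 6 of 12 genes of macrophages in general, 0 of 2 MHC class II genes and 2 of 6 recruited markers. A match says only that these letters are there. The windows below are those in the table for resident and C1q genes that differed between genotypes under PFOA (C1qb, C1qc, Marco, Vsig4, Cd5l and Clec4f), with the motif in capitals. C1qb lies on the minus strand at chr4:136886201-136886450 with 1 match 30 bases before the start. C1qc lies on the minus strand at chr4:136892915-136893164 with 1 match 193 bases before the start. Marco lies on the minus strand at chr1:120505025-120505274 with 1 match at 146 bases. Vsig4 lies on the minus strand at chrX:96293439-96293688 with 2 matches, at 155 and 53 bases. Cd5l lies on the plus strand at chr3:87357631-87357880 with 1 match at 66 bases. Clec4f lies on the minus strand at chr6:83656117-83656366 and holds none.
C1qb: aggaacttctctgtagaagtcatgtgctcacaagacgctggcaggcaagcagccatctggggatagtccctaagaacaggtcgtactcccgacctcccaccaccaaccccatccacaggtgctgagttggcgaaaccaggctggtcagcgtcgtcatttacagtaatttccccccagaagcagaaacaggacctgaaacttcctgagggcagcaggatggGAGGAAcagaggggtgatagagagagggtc
C1qc: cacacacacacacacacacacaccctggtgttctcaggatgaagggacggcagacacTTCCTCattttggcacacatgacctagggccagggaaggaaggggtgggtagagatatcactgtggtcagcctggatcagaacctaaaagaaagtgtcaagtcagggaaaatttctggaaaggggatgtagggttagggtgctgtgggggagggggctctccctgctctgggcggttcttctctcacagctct
Marco: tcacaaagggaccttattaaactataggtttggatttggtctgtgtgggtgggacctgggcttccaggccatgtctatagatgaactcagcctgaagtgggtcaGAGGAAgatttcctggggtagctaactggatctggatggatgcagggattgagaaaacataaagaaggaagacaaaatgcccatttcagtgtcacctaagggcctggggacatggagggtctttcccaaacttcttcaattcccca
Vsig4: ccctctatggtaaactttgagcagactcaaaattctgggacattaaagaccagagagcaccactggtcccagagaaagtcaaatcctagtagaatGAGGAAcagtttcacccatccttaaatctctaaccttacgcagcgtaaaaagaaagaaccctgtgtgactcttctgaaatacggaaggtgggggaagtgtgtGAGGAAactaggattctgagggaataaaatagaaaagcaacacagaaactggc
Cd5l: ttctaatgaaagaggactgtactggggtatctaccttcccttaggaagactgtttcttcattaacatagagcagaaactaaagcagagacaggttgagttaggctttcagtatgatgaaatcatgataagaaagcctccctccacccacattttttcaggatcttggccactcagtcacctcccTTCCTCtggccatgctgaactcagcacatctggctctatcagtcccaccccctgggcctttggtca
Clec4f: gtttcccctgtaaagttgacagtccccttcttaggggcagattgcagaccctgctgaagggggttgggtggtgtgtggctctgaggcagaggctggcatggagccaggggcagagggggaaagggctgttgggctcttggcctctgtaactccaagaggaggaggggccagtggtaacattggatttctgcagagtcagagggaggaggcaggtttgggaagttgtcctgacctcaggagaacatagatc

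MHC class II promoters carry a different box, whose core ATTGG or CCAAT was searched in the same way and stood in 33.8% of all windows and in 13 of the 30 members. Those 13 were 3 of 8 resident markers, 0 of 2 C1q chains, 5 of 12 genes of macrophages in general, 2 of 2 MHC class II genes and 3 of 6 recruited markers. The 2 MHC class II windows are shown because both hold this core and neither gene was called for PFOA or genotype, with the core in capitals. H2-Aa lies on the minus strand at chr17:34287824-34288073 with 1 match 48 bases before the start. H2-Eb1 lies on the plus strand at chr17:34305617-34305866 with 2 matches, at 59 and 35 bases.
H2-Aa: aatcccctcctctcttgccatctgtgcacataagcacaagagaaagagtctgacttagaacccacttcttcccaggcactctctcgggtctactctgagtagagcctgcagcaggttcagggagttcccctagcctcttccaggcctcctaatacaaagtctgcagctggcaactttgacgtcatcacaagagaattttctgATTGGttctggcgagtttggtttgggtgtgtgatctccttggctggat
H2-Eb1: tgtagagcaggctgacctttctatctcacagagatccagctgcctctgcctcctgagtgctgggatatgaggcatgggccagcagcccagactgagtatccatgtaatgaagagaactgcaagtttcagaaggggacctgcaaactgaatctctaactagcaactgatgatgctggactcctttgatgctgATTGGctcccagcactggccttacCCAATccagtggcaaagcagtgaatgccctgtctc

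The 20 libraries held between 14973673 and 17953860 counts. Levels are given as CPM, each gene's count as a share of its library's total after TMM scaling, the usual depth-scaled unit, which are not corrected for gene length and so are compared between libraries and not between genes. Whether each library is a mouse of its own is not stated in the labels, and p-values cover the spread between these libraries only. The Ppara row had 8.47 to 25.2 CPM in KO libraries and 16.6 to 39.5 CPM in hPPARa libraries, so this row does not check the KO label. In 3 KO libraries a low level of the other sex's transcripts was present: the Y-linked Ddx3y reached 4.07 CPM in KO female PFOA replicate 2 and 1.85 CPM in the KO female vehicle liver, against 0 to 0.107 CPM in the other KO females, and Xist reached 31.0 CPM in KO male PFOA replicate 2, against 0.444 to 3.22 CPM in the other KO males. Counts of members called are therefore also given without these 3 libraries. The share of all genes called is not given for these fits or for others that leave out libraries. Their counts are thus not read as a stronger or weaker result for the members. The defining Kupffer marker Clec4f was present in every library, at 32.2 to 122 CPM.

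PFOA in KO livers raised 5 of the 10 resident Kupffer markers and no other member. They were Folr2, Adgre1, Cd163, Cd5l and Timd4, which rose between 1.57-fold and 2.21-fold. The 5 members called higher compare with 7.41% of all 15334 genes tested called higher and 6.36% called lower, by edgeR's quasi-likelihood test at a Benjamini-Hochberg adjusted p below 0.05. Over the 38 members tested, the log2 fold change was positive for 32 and had a median of 0.43, beside a median of -0.02 over all genes tested. Some markers of other liver cells were called in the same contrast. Of these, 6 of 8 cholangiocyte, 3 of 12 stellate cell and 3 of 12 hepatocyte markers fell and none of them rose. Of 12 sinusoidal endothelial markers 2 rose and none was called lower, while 7 had negative log2 fold changes and the median was -0.04. Cholangiocyte markers summed to 23.4 to 56.8 CPM in KO PFOA livers and 58.6 to 257 CPM in KO vehicle livers. The 257 CPM came from the single KO female vehicle liver. In KO males the sums were 33.6 to 38.55 CPM on PFOA and 58.6 to 85.5 CPM on vehicle. With PFOA in KO males alone, all 8 cholangiocyte markers had negative log2 fold changes and none was called. Stellate cell markers summed to 338 to 503 CPM in KO PFOA livers and 388 to 572 CPM in KO vehicle livers. Endothelial markers summed to 398 to 500.2 CPM in KO PFOA livers and, overlapping, to 324 to 519.9 CPM in KO vehicle livers. The part of these shifts in the members' values was not tested.

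Adgre1 encodes the adhesion receptor that is the classical surface antigen of mouse macrophages. It had 8.82, 8.37 and 14.2 CPM in male PFOA livers and 13.6, 10.5 and 13.7 CPM in female PFOA livers, against 5.10, 5.49 and 4.51 CPM in male vehicle livers and 6.94 CPM in the single female vehicle liver. All 6 KO PFOA livers lay above all 4 KO vehicle livers, and the log2 fold change was 0.98 ± 0.17 (SE, edgeR adjusted p = 0.00265). Cd163, the receptor that takes up haemoglobin bound to haptoglobin, had 13.7, 9.45 and 12.2 CPM in male PFOA livers and 9.70, 13.7 and 11.4 CPM in female PFOA livers, against 6.11, 7.57 and 5.40 CPM in male vehicle livers and 8.22 CPM in the female one. Its groups did not overlap either. In all, 5 members lay higher without overlap in both sexes, the others being Csf1r, Ctss and Mrc1, none of them called, and 10% of all genes did so. Cd163 rose by 0.74 ± 0.16 on the log2 scale (SE, edgeR adjusted p = 0.00898). These were the only 2 members called under each of the 17 alternative settings run for PFOA in KO livers.

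Folr2, the folate receptor of tissue macrophages, had 1.01, 0.662 and 1.29 CPM in male PFOA livers and 1.55, 1.43 and 1.52 CPM in female PFOA livers, against 0.403, 0.670 and 0.317 CPM in male vehicle livers and 0.617 CPM in the female vehicle liver. One male PFOA liver lay just under the highest male vehicle liver, and the log2 fold change was 1.146 ± 0.32 (SE, edgeR adjusted p = 0.0324). These levels rest on 5 to 29 counts per library over the whole series. Cd5l, a secreted protein of resident macrophages that binds lipids and bacteria, had 54.9, 77.4 and 104 CPM in male PFOA livers and 98.5, 81.5 and 102 CPM in female PFOA livers, against 40.2, 55.5 and 37.3 CPM in male vehicle livers and 70.9 CPM in the female one. One male PFOA liver again lay level with the highest male vehicle liver, and the log2 fold change was 0.67 ± 0.19 (SE, edgeR adjusted p = 0.0397). Timd4, the receptor for phosphatidylserine on dying cells, had 5.23, 5.96 and 7.56 CPM in male PFOA livers and 7.08, 7.71 and 8.28 CPM in female PFOA livers, against 3.29, 5.70 and 2.79 CPM in male vehicle livers and 4.88 CPM in the female one, a log2 fold change of 0.65 ± 0.20 (SE, edgeR adjusted p = 0.0467). Male groups overlapped for Timd4 through vehicle replicate 2.

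The remaining resident markers were not called with PFOA in KO livers. Vsig4, the complement receptor with which Kupffer cells capture particles coated with C3 fragments, had a log2 fold change of 0.65 ± 0.22 (SE, edgeR adjusted p = 0.0703), almost the same size as that of Timd4. Clec4f, a lectin of mouse Kupffer cells, had 0.46 ± 0.21 (SE, edgeR adjusted p = 0.173), and Spic, a transcription factor of iron-recycling macrophages, had 0.40 ± 0.28 (SE, edgeR adjusted p = 0.371). The iron exporter Slc40a1, which other liver cells express too, had 0.11 ± 0.16 (SE, edgeR adjusted p = 0.709). Marco, a scavenger receptor for bacteria, was the only resident marker with a negative value, -0.16 ± 0.59 (SE, edgeR adjusted p = 0.889). KO female PFOA replicate 1 had 4.29 CPM of Marco, while the other 5 KO PFOA livers had 0.281 to 1.54 CPM.

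**Figure D1:**
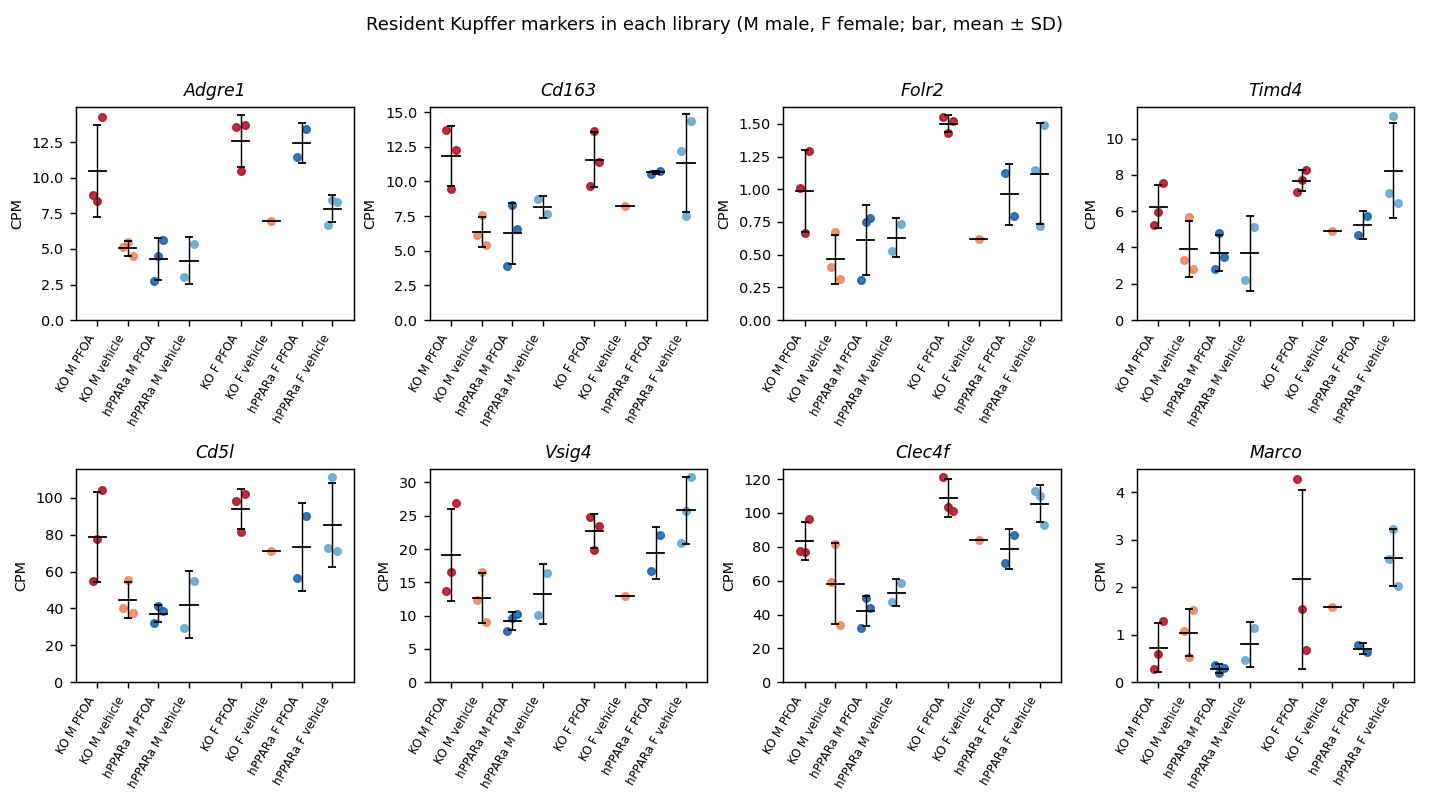
CPM (vertical axis, from 0) of 8 resident Kupffer markers in each library, by genotype, sex (M male, F female) and exposure. Points are libraries, and bars are the mean ± SD of each group, with no SD for the single KO female vehicle library. All KO PFOA points of Adgre1 and Cd163 lie above the KO vehicle points of the same sex, and Marco is low in all 5 hPPARa PFOA livers.

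Outside the resident markers, KO livers on PFOA gave positive but uncalled values for the C1q chains, which start the classical complement pathway. C1qa had a log2 fold change of 0.34 ± 0.22, C1qb of 0.47 ± 0.22 and C1qc of 0.46 ± 0.23 (SE, lowest edgeR adjusted p = 0.193). Of the 15 tested genes of macrophages in general, none was called and 14 were positive, with a median log2 fold change of 0.45. Csf1r, the receptor for Csf1, came closest, at 0.53 ± 0.18 (SE, edgeR adjusted p = 0.0755), and Ctss, a lysosomal protease that trims the invariant chain, had 0.58 ± 0.22 (SE, edgeR adjusted p = 0.108). At an unadjusted p below 0.05, 8 of these 15 passed, where 29.1% of all genes did, and DESeq2 called Csf1r alone among them. The 4 MHC class II genes had a median of 0.16 with none below an unadjusted p of 0.05, and the 6 recruited markers a median of -0.25 with none below it either.

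The number of members called in KO livers changed when single libraries were left out. KO male vehicle replicate 3 had the lowest value of its group for 27 of the 39 members, and KO male vehicle replicate 2 had the highest for 31. Without replicate 2 the count of members called rose to 12, and it was 2 without KO male vehicle replicate 1, without replicate 3 or without KO male PFOA replicate 3. It was 3 without KO female PFOA replicate 1, KO female PFOA replicate 2, KO male PFOA replicate 2 or the single KO female vehicle liver. Without the 3 libraries that carry transcripts of the other sex, the contrast rests on males alone, since no KO female vehicle liver is left, and 2 members were called, Adgre1 and Cd163, at log2 fold changes of 1.19 and 1.03. Their adjusted p-values in edgeR's quasi-likelihood fit across all genes were 0.01355 and 0.0153. In KO males alone 3 members were called higher, where 5.63% of all genes tested were: Adgre1 at 1.06 ± 0.22 (SE, edgeR adjusted p = 0.0104), Cd163 at 0.89 ± 0.19 (SE, edgeR adjusted p = 0.0139), and Lgmn, a lysosomal asparagine-specific protease, at 0.44 ± 0.13 (SE, edgeR adjusted p = 0.0485). The count in KO males was 7 without vehicle replicate 2 and 1 without vehicle replicate 1 or PFOA replicate 3. In KO females none was called by edgeR or DESeq2, 5 of 38 (13.2%) passed an unadjusted p below 0.05, where 20.1% of all genes did, and 5.31% of all genes tested were called, 2.33% higher and 2.97% lower. Leaving out KO female PFOA replicate 1 gave 1 call there.

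PFOA in hPPARa livers raised no member and lowered 6: the resident markers Marco, Vsig4 and Clec4f, the complement chains C1qa and C1qb, and Mpeg1, which encodes a pore-forming protein that macrophages use against engulfed bacteria. Of all 14400 genes tested, 22.6% were called, 12.8% higher and 9.76% lower. At an unadjusted p below 0.05, 10 of 36 members (27.8%) passed, where 36.1% of all genes did. The median log2 fold change of the 36 members tested was -0.21, beside -0.01 over all genes tested. The median was -0.30 for the 10 resident markers, with 9 below 0, -0.39 for the C1q chains, -0.22 for 15 genes of macrophages in general, 0.04 for the MHC class II genes and 0.15 for the 4 recruited markers tested. In the same contrast 7 of 12 hepatocyte and 3 of 12 stellate cell markers fell and none of them rose, 5 of 12 sinusoidal endothelial markers rose and none fell, and no cholangiocyte marker was called. Stellate markers summed to 333 to 509 CPM in hPPARa PFOA livers and 444 to 664 CPM in hPPARa vehicle livers, and endothelial markers to 465 to 602 CPM in hPPARa PFOA livers and 444 to 582 CPM in hPPARa vehicle livers. The part of these shifts in the members' values was not tested either.

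Marco had the largest change. It had 0.365, 0.187 and 0.301 CPM in male PFOA livers and 0.787 and 0.627 CPM in female PFOA livers, against 0.459 and 1.14 CPM in male vehicle livers and 2.60, 3.24 and 2.03 CPM in female vehicle livers. PFOA livers lay below vehicle livers in both sexes, and the log2 fold change was -1.74 ± 0.33 (SE, edgeR adjusted p = 0.00204), a 3.34-fold lower level. These values rest on 3 to 80 counts per library over the series. The closest males, PFOA replicate 1 at 0.365 CPM and vehicle replicate 1 at 0.459 CPM, had 6 and 7 counts, so males were barely separated. C1qa had 18.2, 21.6 and 19.2 CPM in male PFOA livers and 37.4 and 44.5 CPM in female PFOA livers, against 23.3 and 31.6 CPM in male vehicle livers and 56.2, 67.6 and 50.3 CPM in female vehicle livers. It too did not overlap in either sex, and the log2 fold change was -0.51 ± 0.12 (SE, edgeR adjusted p = 0.0072). Marco and C1qa were the only 2 members that both lay without overlap in each sex and were called under all 16 alternative settings run for PFOA in hPPARa livers. Of all genes tested, 9.1% lay lower without overlap in both sexes.

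The other 4 calls were smaller. C1qb had 19.1, 23.4 and 18.6 CPM in male PFOA livers and 40.9 and 45.8 CPM in female PFOA livers, against 21.1 and 30.5 CPM in male vehicle livers and 52.0, 66.2 and 52.9 CPM in female vehicle livers, a log2 fold change of -0.39 ± 0.12 (SE, edgeR adjusted p = 0.0365). Clec4f had 32.2, 49.5 and 43.8 CPM in male PFOA livers and 70.2 and 87.0 CPM in female PFOA livers, against 47.1 and 58.6 CPM in male vehicle livers and 113, 110 and 92.9 CPM in female vehicle livers, a log2 fold change of -0.40 ± 0.13 (SE, edgeR adjusted p = 0.0368). For both genes the females did not overlap and the males did. Mpeg1 had 24.7, 33.8 and 30.9 CPM in male PFOA livers and 45.9 and 50.2 CPM in female PFOA livers, against 43.5 and 46.9 CPM in male vehicle livers and 58.5, 97.8 and 46.9 CPM in female vehicle livers, a log2 fold change of -0.56 ± 0.18 (SE, edgeR adjusted p = 0.0398). Here the males did not overlap and the females did. Vsig4 had a log2 fold change of -0.48 ± 0.16 (SE, edgeR adjusted p = 0.0448), with 7.74, 9.59 and 10.3 CPM in male PFOA livers and 16.7 and 22.2 CPM in female PFOA livers, against 10.03 and 16.4 CPM in male vehicle livers and 20.9, 25.6 and 30.9 CPM in female vehicle livers. Its groups overlapped in both sexes.

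Members not called with PFOA in hPPARa livers spread on both sides of 0. Fcer1g, the shared signalling chain of Fc receptors, came closest, at -0.39 ± 0.14 (SE, edgeR adjusted p = 0.0563), and C1qc had -0.33 ± 0.14 (SE, edgeR adjusted p = 0.105). Fcgr1, the high-affinity IgG receptor, had -0.67 ± 0.27 (SE, edgeR adjusted p = 0.0933). Adgre1 stood on the other side among resident markers, at 0.37 ± 0.21 (SE, edgeR adjusted p = 0.232): its female PFOA livers had 11.47 and 13.4 CPM, against 6.72, 8.45 and 8.32 CPM in female vehicle livers, while its male PFOA livers had 2.74, 4.49 and 5.65 CPM, against 3.02 and 5.35 CPM in male vehicle livers. Lgmn had 0.20 ± 0.09 (SE, edgeR adjusted p = 0.135) and was the single member higher without overlap in both sexes, where 12.5% of all genes were.

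The number of members called in hPPARa livers also changed when single libraries were left out. The count of 6 fell to 2 without hPPARa female PFOA replicate 1, to 3 without hPPARa female PFOA replicate 2, male PFOA replicate 3, male vehicle replicate 2 or female vehicle replicate 2, and it lay between 5 and 8 without the others. In hPPARa females alone, 2 members were called lower, beside 7.87% of all genes: Marco at -1.91 ± 0.42 (SE, edgeR adjusted p = 0.00814) and C1qa at -0.53 ± 0.17 (SE, edgeR adjusted p = 0.0409). None was called without either of the female PFOA livers, 1 without female vehicle replicate 1 and 4 without female vehicle replicate 3. In hPPARa males alone no member was called by edgeR or DESeq2 and 6 of 36 (16.7%) passed an unadjusted p below 0.05, where 21.8% of all genes did. By adjusted p, 8.2% of all genes were called there, 5.3% higher and 2.9% lower. The direct test of whether the effect of PFOA differed between hPPARa males and hPPARa females called no member by edgeR or DESeq2, with 1 of 36 (2.78%) at an unadjusted p below 0.05, where 10.3% of all genes were. By adjusted p, 0.104% of all genes were called there, 0.0417% higher and 0.0625% lower.

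**Figure D2:**
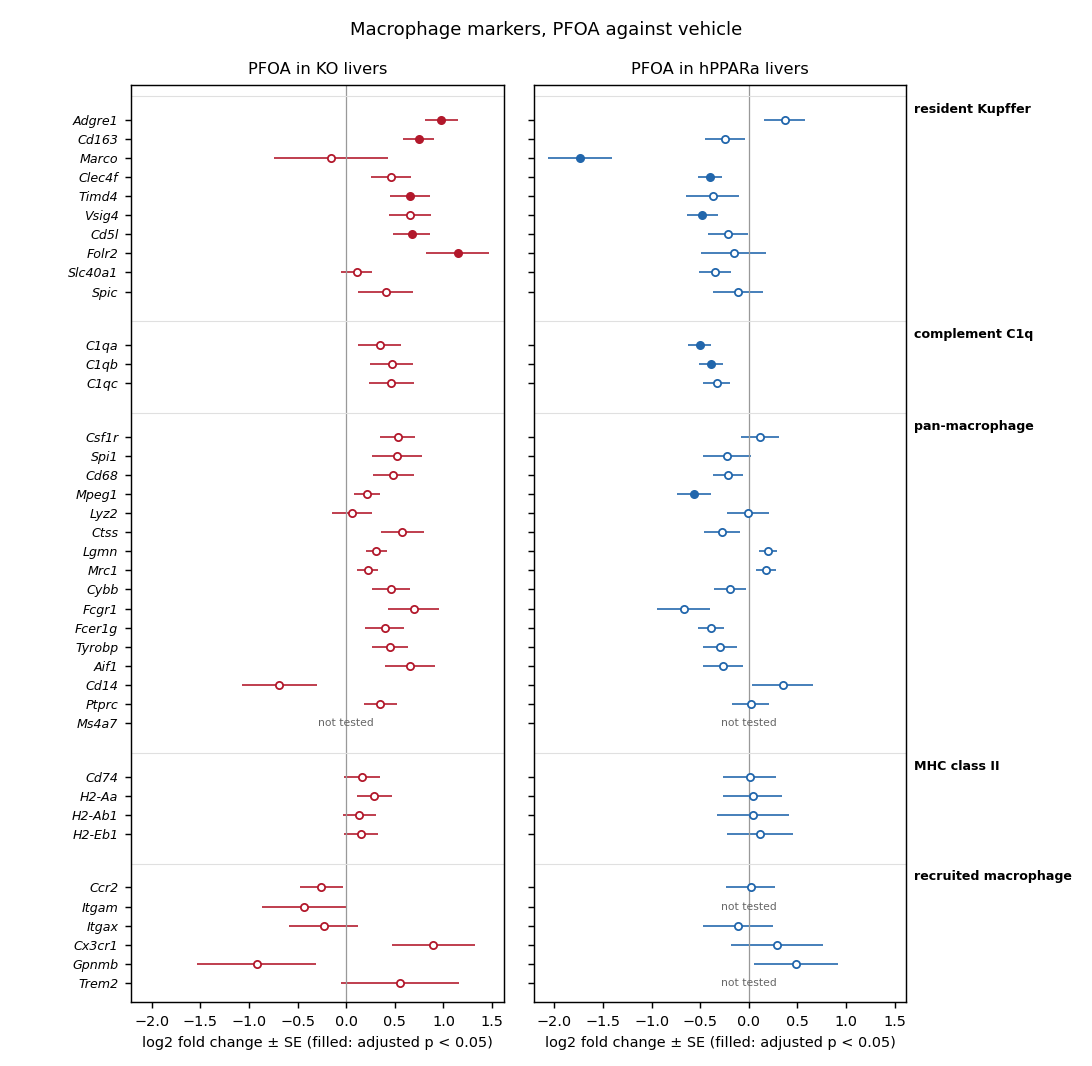
Log2 fold change ± SE of PFOA against vehicle (horizontal axis) for each member, in KO livers on the left and hPPARa livers on the right, ordered by group of markers. Filled points have an adjusted p below 0.05 by edgeR's quasi-likelihood test. In KO livers 32 of 38 tested members lie right of 0, with 5 filled, and in hPPARa livers 23 of 36 lie left of 0, with 6 filled.

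The difference between these effects, the PFOA effect in KO livers minus that in hPPARa livers, was tested in one model of all 20 libraries. It called no member by edgeR, where 1.17% of all 15811 genes tested were called in either direction, while 19 of 38 members passed an unadjusted p below 0.05, where 14% of all genes did, and DESeq2 called 6, where it called 2.97% of all genes. Those 6 were Cd163, Clec4f, Vsig4, C1qa, C1qb and Fcgr1. The largest of them by edgeR were Fcgr1 at 1.36 ± 0.39 (SE, edgeR adjusted p = 0.095), Vsig4 at 1.13 ± 0.29 (SE, edgeR adjusted p = 0.0623) and Cd163 at 0.99 ± 0.28 (SE, edgeR adjusted p = 0.0887), all as log2 differences. The members' median log2 difference was 0.68 and that of the resident markers 0.94. By edgeR, 4 members were called without KO male vehicle replicate 2, and 1 each without hPPARa female vehicle replicate 2 or KO male PFOA replicate 1. Without the 3 libraries with transcripts of the other sex none was called. Without the filter on low counts edgeR called more members, as given in the last section. An effect called in 1 genotype only is thus not shown to differ for any single member in the filtered edgeR fit.

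KO against hPPARa livers under PFOA gave the most calls. Of 38 members tested, 16 were higher in KO livers and 1 was lower, beside 7.13% of all 15811 genes called higher and 7.79% called lower. The 16 held 5 of 10 resident markers, all 3 C1q chains, 7 of 15 genes of macrophages in general and 1 of 6 recruited markers, and none of the 4 MHC class II genes. The members' median log2 difference was 0.61, beside 0.00 over all genes tested. Of the 38, 12 lay higher without overlap in both sexes and 1 lower, where 6.88% and 7.65% of all genes did. Without the 3 libraries with transcripts of the other sex 15 members were called, each of them among these 17, and the calls of Marco and Fcgr1 were lost. Their adjusted p-values in edgeR's fit across all genes were 0.0631 and 0.0803. These libraries also entered the comparisons of PFOA with vehicle, so the comparisons are not independent.

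Complement C1q showed this most evenly. C1qb had 43.7, 42.6 and 58.4 CPM in KO males and 72.5, 56.1 and 50.9 CPM in KO females on PFOA, against 19.1, 23.4 and 18.6 CPM in hPPARa males and 40.9 and 45.8 CPM in hPPARa females on PFOA. Each KO liver lay above each hPPARa liver of its sex, and the log2 difference was 0.85 ± 0.17 (SE, edgeR adjusted p = 0.00252). C1qa had 35.5, 33.9 and 43.8 CPM in KO males and 68.2, 46.4 and 46.6 CPM in KO females, against 18.2, 21.6 and 19.2 CPM in hPPARa males and 37.4 and 44.5 CPM in hPPARa females, a log2 difference of 0.66 ± 0.17 (SE, edgeR adjusted p = 0.0119). C1qc had 40.1, 36.1 and 53.5 CPM in KO males and 65.2, 51.2 and 52.6 CPM in KO females, against 17.9, 21.2 and 21.7 CPM in hPPARa males and 39.02 and 47.3 CPM in hPPARa females, a log2 difference of 0.73 ± 0.19 (SE, edgeR adjusted p = 0.0129). The groups of all 3 chains did not overlap in either sex, and the call of C1qc alone was lost in 1 setting, without hPPARa female PFOA replicate 1 (edgeR adjusted p = 0.0518).

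Among resident markers, Clec4f was called in all 26 alternative settings run for this comparison. It had 77.5, 76.7 and 96.5 CPM in KO males and 122, 103 and 101 CPM in KO females on PFOA, against 32.2, 49.5 and 43.8 CPM in hPPARa males and 70.2 and 87.0 CPM in hPPARa females, without overlap and with a log2 difference of 0.72 ± 0.17 (SE, edgeR adjusted p = 0.00628). Cd5l was higher by 0.72 ± 0.20 (SE, edgeR adjusted p = 0.0235), Adgre1 by 0.65 ± 0.19 (SE, edgeR adjusted p = 0.0203) and Vsig4 by 0.64 ± 0.19 (SE, edgeR adjusted p = 0.0272), all on the log2 scale. Adgre1 had 8.82 to 14.2 CPM in KO males against 2.74 to 5.65 CPM in hPPARa males, but 10.5 to 13.7 CPM in KO females overlapped 11.47 to 13.4 CPM in hPPARa females. Cd5l and Vsig4 likewise overlapped in females and not in males, and Marco overlapped in both sexes. Marco had the largest log2 difference of this list, 1.51 ± 0.49 (SE, edgeR adjusted p = 0.0402), and leaned on KO female PFOA replicate 1: without that library it was 0.99 (edgeR adjusted p = 0.122). Timd4, at 0.63 ± 0.23 (SE, edgeR adjusted p = 0.0729), and Cd163, at 0.53 ± 0.18 (SE, edgeR adjusted p = 0.0551), fell short of the threshold, although Timd4 did not overlap in either sex.

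Of the genes of macrophages in general, 7 were higher in KO livers on PFOA. Mpeg1 had 58.4, 53.6 and 65.5 CPM in KO males and 70.0, 55.8 and 89.2 CPM in KO females, against 24.7, 33.8 and 30.9 CPM in hPPARa males and 45.9 and 50.2 CPM in hPPARa females, a log2 difference of 0.79 ± 0.16 (SE, edgeR adjusted p = 0.00226). Cd68, a glycoprotein of macrophage lysosomes, had 11.9, 11.5 and 17.5 CPM in KO males and 20.1, 13.9 and 13.6 CPM in KO females, against 6.39, 8.41 and 6.44 CPM in hPPARa males and 9.28 and 10.3 CPM in hPPARa females, a log2 difference of 0.80 ± 0.18 (SE, edgeR adjusted p = 0.00398). Tyrobp, the adaptor through which Trem2 and related receptors signal, had 7.98, 9.09 and 14.7 CPM in KO males and 15.7, 12.5 and 12.6 CPM in KO females, against 4.75, 6.04 and 5.53 CPM in hPPARa males and 8.21 and 10.03 CPM in hPPARa females, a log2 difference of 0.75 ± 0.18 (SE, edgeR adjusted p = 0.0061). None of these 3 genes overlapped between genotypes in either sex. The other 4 were Fcgr1 at 0.87 ± 0.26, Ctss at 0.71 ± 0.20, Fcer1g at 0.66 ± 0.16 and Cybb, the catalytic subunit of the phagocyte NADPH oxidase, at 0.59 ± 0.17 (SE, highest edgeR adjusted p = 0.0262). Fcgr1, Ctss and Fcer1g also did not overlap in either sex.

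Mrc1, the mannose receptor, was the exception and went the other way. It had 33.0, 34.4 and 33.0 CPM in KO males and 34.1, 37.0 and 46.8 CPM in KO females on PFOA, against 43.8, 36.6 and 44.4 CPM in hPPARa males and 52.9 and 59.5 CPM in hPPARa females, a log2 difference of -0.42 ± 0.10 (SE, edgeR adjusted p = 0.00588). KO livers lay below hPPARa livers in both sexes. Mrc1 is also expressed by the endothelium of the liver sinusoids. Of 12 markers of that endothelium 4 were lower in KO livers on PFOA and none was higher, where 7.79% and 7.13% of all genes were: Stab1 at -0.60 ± 0.13, Oit3 at -0.55 ± 0.12, Kdr at -0.47 ± 0.14 and Fcgr2b at -0.36 ± 0.11 (SE, highest edgeR adjusted p = 0.0323). Their summed level was 398 to 500.2 CPM in KO and 465 to 602 CPM in hPPARa livers on PFOA, and none of the 12 was at 0. Their part in the Mrc1 result was not tested.

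On vehicle, KO and hPPARa livers differed in 1 member, which was again Mrc1, at a log2 difference of -0.46 ± 0.11 (SE, edgeR adjusted p = 0.0254), where 3.77% of all genes were called, 2% higher and 1.76% lower. It had 30.3, 23.6 and 31.9 CPM in KO males and 33.4 CPM in the KO female, against 38.7 and 35.8 CPM in hPPARa males and 40.4, 49.98 and 54.4 CPM in hPPARa females. The groups did not overlap in either sex, as for 6.74% of all genes on the lower side, but the call was lost without the 3 libraries with transcripts of the other sex (edgeR adjusted p = 0.2001). The members' median log2 difference on vehicle was -0.05, and 5 of 38 (13.2%) passed an unadjusted p below 0.05, where 19.7% of all genes did. C1qc had a log2 difference of -0.06 ± 0.21 and Mpeg1 of 0.01 ± 0.18 there (SE), while the 10 resident markers had a median of -0.17 with 9 below 0. Leaving out single libraries gave 0 to 2 calls.

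**Figure D3:**
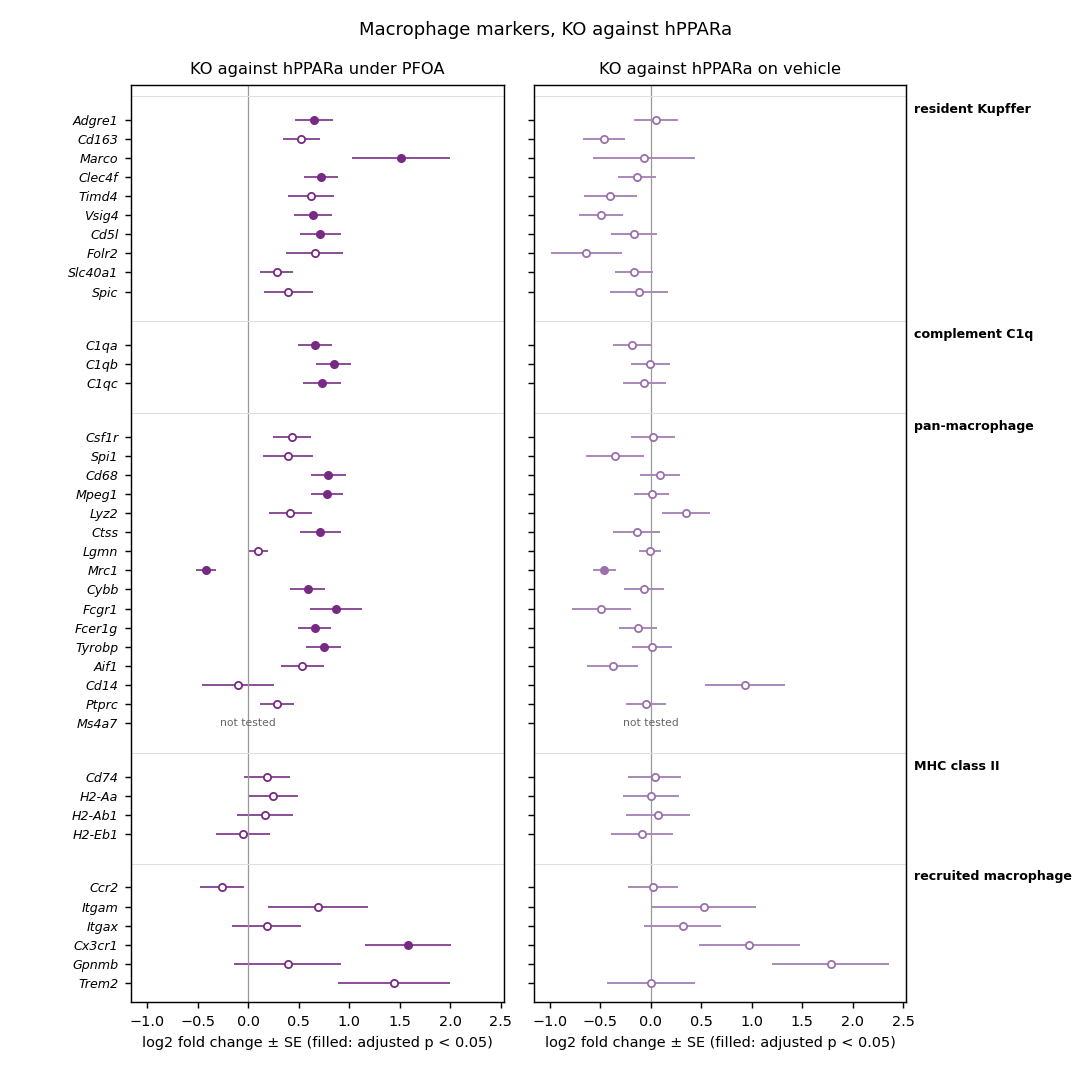
Log2 difference ± SE of KO against hPPARa livers (horizontal axis) for each member, under PFOA on the left and on vehicle on the right. Filled points have an adjusted p below 0.05 by edgeR's quasi-likelihood test. Under PFOA 16 members are filled right of 0 and Mrc1 is filled left of it, and on vehicle Mrc1 alone is filled.

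The count of 17 under PFOA was 9 without hPPARa female PFOA replicate 1, which had the lower value of its pair for 30 of 39 members, and 10 without KO male PFOA replicate 3, which had the highest of its group for 32. C1qa, C1qb, Clec4f, Mpeg1 and Tyrobp were called in all 26 alternative settings. Marco kept the call in 17 of them, and Adgre1, Cx3cr1, Cd5l, Ctss, Cybb, Fcgr1 and Vsig4 kept it in 20 to 24. Mrc1, Cd68, Fcer1g and C1qc each lost it in 1.

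Of the 6 markers of recruited macrophages, 1 differed between genotypes under PFOA, where 14.9% of all genes did. None of the 6 was called with PFOA in KO livers, where 13.8% of all genes were. In hPPARa livers none of the 4 tested was called with PFOA, where 22.6% of all genes were. Cx3cr1, the fractalkine receptor of monocytes and of some resident macrophages, was the one called. It had 2.58, 2.71 and 3.28 CPM in KO males and 2.52, 1.76 and 0.507 CPM in KO females on PFOA, against 1.16, 1.43 and 0.361 CPM in hPPARa males and 0.506 and 0.342 CPM in hPPARa females. KO female PFOA replicate 3, at 0.507 CPM, and hPPARa female PFOA replicate 1, at 0.506 CPM, rest on 9 counts each, so the females were separated by next to nothing, and the log2 difference was 1.58 ± 0.42 (SE, edgeR adjusted p = 0.0147). Its counts were 5 to 56 per library, and the call was lost without either of the hPPARa female PFOA livers. On vehicle it had a log2 difference of 0.98 ± 0.50 (SE, edgeR adjusted p = 0.292). Its groups did not overlap there, as for 6.72% of all genes on the higher side, but the closest males had 0.537 CPM in KO and 0.525 CPM in hPPARa, on 8 counts each, and KO females were a single library.

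Ccr2, the chemokine receptor that brings monocytes out of the marrow, did not follow Cx3cr1. It had 1.57, 1.45 and 2.05 CPM in KO males and 1.88, 1.16 and 1.80 CPM in KO females on PFOA, against 2.19, 2.31 and 1.74 CPM in hPPARa males and 1.24 and 2.22 CPM in hPPARa females, and its log2 difference was -0.26 ± 0.21 (SE, edgeR adjusted p = 0.469). The integrin chains Itgax, at 0.19 ± 0.34, and Itgam, at 0.69 ± 0.50, the lysosomal glycoprotein Gpnmb, at 0.39 ± 0.53, and the lipid receptor Trem2, at 1.45 ± 0.55 (SE, lowest edgeR adjusted p = 0.0838), were not called. Itgam rested on 2 to 17 and Trem2 on 1 to 16 counts per library, and neither was tested in the hPPARa livers alone. Ms4a7, a membrane protein of some monocyte-derived and other macrophages, had 0 to 9 counts per library and was tested in no comparison.

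Gpnmb and Cd14, the co-receptor for bacterial lipopolysaccharide, stood high in the single KO female vehicle liver. Gpnmb had 4.52 CPM there, against 0.131 to 2.04 CPM in the other 19 livers, and Cd14 had 9.82 CPM, against 1.28 to 5.41 CPM. That liver also carried 60.5 CPM of the bile duct keratin Krt19, which had 0.203 to 3.62 CPM elsewhere, and a summed level of 8 cholangiocyte markers of 257 CPM, against 58.6 to 85.5 CPM in KO male vehicle livers. The part of these in the recruited markers was not tested.

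The resident level minus the recruited level, each as the mean log2 CPM of its list, was taken in each library as a description and without a test. It was 3.46 ± 0.27 in KO male PFOA livers and 3.32 ± 0.32 in KO male vehicle livers (SD, n = 3 each), and 3.14 ± 0.34 (SD, n = 3) in hPPARa male PFOA livers and 3.603 ± 0.61 (SD, n = 2) in hPPARa male vehicle livers. In females it was 3.88 ± 0.49 (SD, n = 3) in KO PFOA livers, 2.47 in the single KO vehicle liver, 3.98 ± 0.10 (SD, n = 2) in hPPARa PFOA livers and 4.06 ± 0.25 (SD, n = 3) in hPPARa vehicle livers. In males and in hPPARa females these differences between PFOA and vehicle lay within or near the spread of the libraries. Among KO females the difference of 1.41 rests on the single vehicle liver, whose recruited level of 0.69 was above the mean of every other group, at -0.75 to -0.05, and whose resident level was 3.16, against 3.78 ± 0.17 (SD, n = 3) in KO female PFOA livers. KO female PFOA replicate 1 had a recruited level of 0.65, close to that of the vehicle liver. The recruited level averages markers with low counts, among them Itgam and Trem2.

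**Figure D4:**
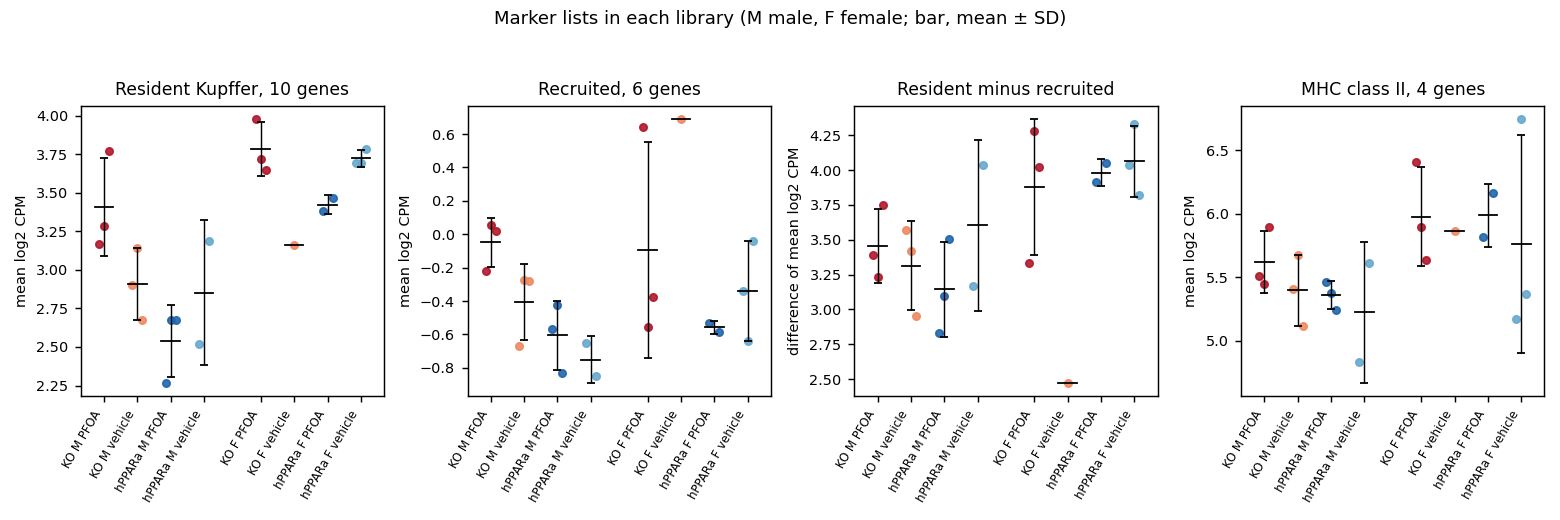
Mean log2 CPM of the 10 resident and of the 6 recruited markers, their difference, and the mean log2 CPM of the 4 MHC class II genes (vertical axes), in each library by genotype, sex (M male, F female) and exposure. Points are libraries and bars the mean ± SD of a group. The single KO female vehicle liver has a resident minus recruited difference of 2.47, under the means of the other groups, at 3.14 to 4.06.

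The MHC class II genes, which present peptides on macrophages, dendritic cells and B cells, were called in no comparison of PFOA or genotype. Under PFOA, Cd74, the invariant chain, had 92.8, 86.8 and 120 CPM in KO males and 180, 114 and 117 CPM in KO females, against 82.2, 81.0 and 78.0 CPM in hPPARa males and 118 and 143 CPM in hPPARa females, a log2 difference of 0.19 ± 0.23 (SE, edgeR adjusted p = 0.644). The males did not overlap and the females did. One liver stood apart: hPPARa female vehicle replicate 2 had 205 CPM of Cd74, 98.3 of H2-Aa, 98.2 of H2-Ab1 and 66.99 of H2-Eb1, against 83.3 to 84.5, 34.9 to 39.1, 27.5 to 32.3 and 21.0 to 26.9 CPM in the other 2 of its group. For C1qa the same 3 livers spread from 50.3 to 67.6 CPM.

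Sex separated the members more widely than PFOA in hPPARa livers. Males had lower levels than females for 18 of 36 members tested, and none was higher, where 3.48% of all 14400 genes were called, 1.53% higher and 1.94% lower. The median log2 difference of males against females was -0.74, beside 0.00 over all genes tested. The 18 comprised 5 of 10 resident markers, 3 of 3 C1q chains and 10 of 15 genes of macrophages in general. All 18 lay lower in males without overlap both on PFOA and on vehicle, and they were the only members that did, where 4.81% of all genes did and 4.19% lay higher.

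Over all 10 hPPARa livers, C1qb had 19.1, 23.4 and 18.6 CPM in PFOA males and 21.1 and 30.5 CPM in vehicle males, against 40.9 and 45.8 CPM in PFOA females and 52.0, 66.2 and 52.9 CPM in vehicle females, a log2 difference of -1.12 ± 0.12 (SE, edgeR adjusted p = 0.000258). The highest male thus lay under the lowest female. C1qa had a log2 difference of -1.08 ± 0.12 (SE, edgeR adjusted p = 0.000239) and C1qc of -1.15 ± 0.14 (SE, edgeR adjusted p = 0.000592). Among resident markers Marco differed by -1.56 ± 0.33, Adgre1 by -1.24 ± 0.21, Vsig4 by -1.03 ± 0.16, Cd5l by -1.001 ± 0.21 and Clec4f by -0.96 ± 0.13 (SE, highest edgeR adjusted p = 0.029). These are levels between 1.94-fold and 2.94-fold lower in males. Among the genes of macrophages in general, Fcgr1 differed by -1.14 ± 0.27, Aif1, an actin-binding protein of activated macrophages, by -1.08 ± 0.21, Ctss by -0.99 ± 0.19, Tyrobp by -0.95 ± 0.18, Csf1r by -0.91 ± 0.20, Fcer1g by -0.87 ± 0.14, Cybb by -0.85 ± 0.16, Cd68 by -0.71 ± 0.15, Lgmn by -0.45 ± 0.09 and Mrc1 by -0.41 ± 0.10 (SE, highest edgeR adjusted p = 0.038).

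Several members showed no such call. Slc40a1 differed by -0.26 ± 0.16 (SE, edgeR adjusted p = 0.486), and Ptprc, the phosphatase CD45 of all leukocytes, by -0.43 ± 0.19 (SE, edgeR adjusted p = 0.264). The 4 MHC class II genes lay between -0.67 and -0.65 with wide errors, and the 4 recruited markers tested had a median of -0.06. The count of 18 was 10 without hPPARa female PFOA replicate 2, and 10 to 17 over all leave-one-out fits. Adgre1, Clec4f, Vsig4, the 3 C1q chains, Cybb, Fcer1g and Tyrobp were called in all 14 alternative settings.

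In KO livers the same contrast called no member by edgeR, where 3.41% of all genes were called, 1.26% higher and 2.15% lower, while 14 of 38 (36.8%) passed an unadjusted p below 0.05, where 19.5% of all genes did. DESeq2 called 3 lower, Lyz2, which encodes lysozyme, Cd14 and Gpnmb, where it called 5.95% of all genes. All 3 stood high in the single KO female vehicle liver, with 21.6 CPM of Lyz2 there against 8.73 to 12.3 CPM in KO male vehicle livers. Without that liver their edgeR log2 differences were -0.46 for Lyz2, -0.83 for Cd14 and -1.08 for Gpnmb (lowest edgeR adjusted p = 0.431). The members' median log2 difference was -0.38, with 36 of 38 below 0. C1qa differed by -0.52 ± 0.22 (SE, edgeR adjusted p = 0.224) and Clec4f by -0.43 ± 0.20 (SE, edgeR adjusted p = 0.279), and these 2 lay lower in males without overlap at both exposures, beside 5.26% of all genes lower and 5.2% higher. Leaving out KO female PFOA replicate 2 gave 4 calls and leaving out KO male PFOA replicate 3 gave 1, while none was called without the 3 libraries with transcripts of the other sex. The difference between the genotypes in the sex effect, KO minus hPPARa, was tested directly and called no member by edgeR or DESeq2, nor any other of the 15811 genes by edgeR, while 11 of 38 members (28.9%) passed an unadjusted p below 0.05, where 6.15% of all genes did, and the members' median was 0.37 on the log2 scale. KO females enter this contrast with a single vehicle library.

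**Figure D5:**
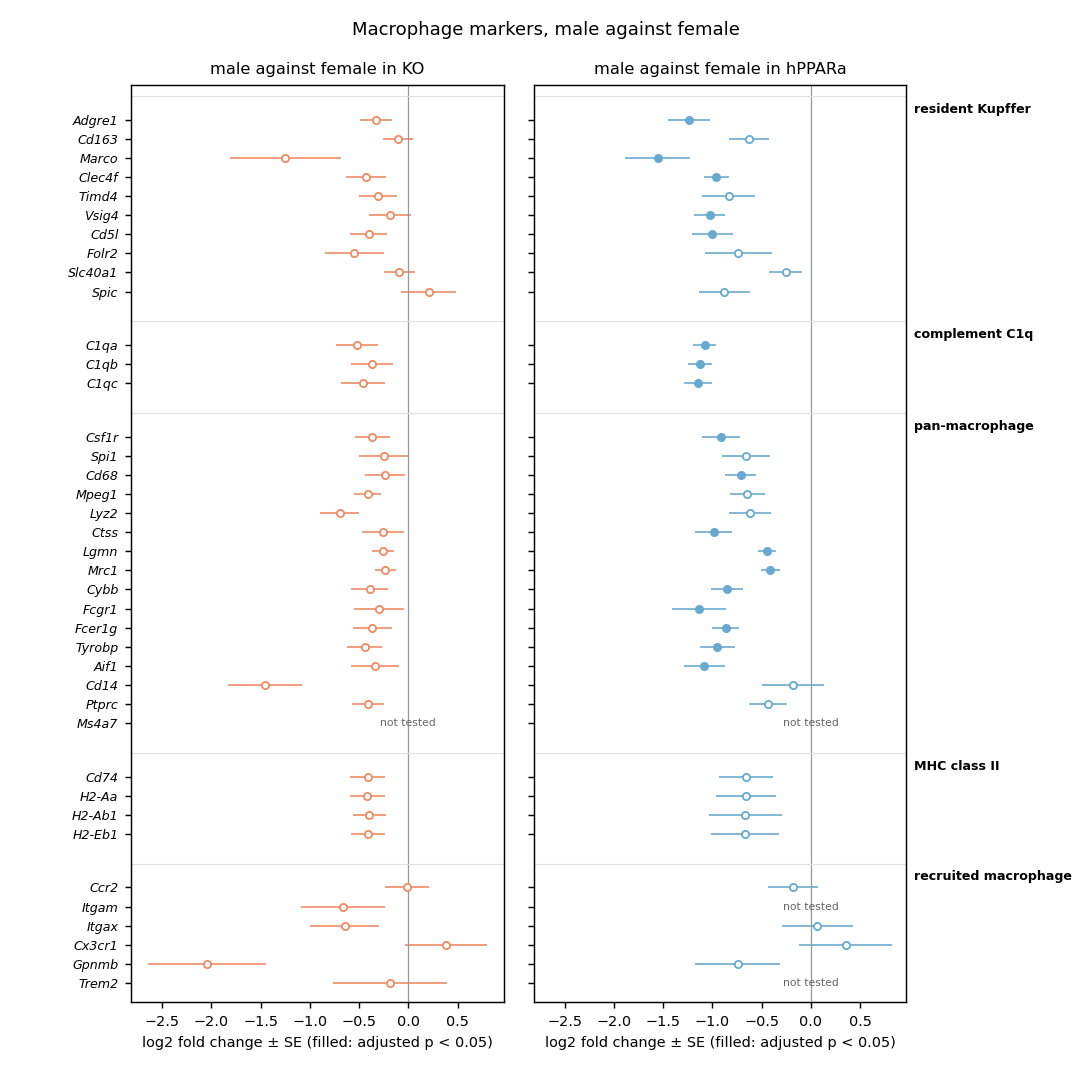
Log2 difference ± SE of males against females (horizontal axis) for each member, in KO livers on the left and hPPARa livers on the right. Filled points have an adjusted p below 0.05 by edgeR's quasi-likelihood test. In hPPARa livers 18 members are filled, all left of 0, and in KO livers none is filled and 36 of 38 lie left of 0.

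In some groups 1 library was the highest or lowest for most members. KO female PFOA replicate 1 and KO male PFOA replicate 3 each had the highest value of their group for 32 of 39 members, and hPPARa male vehicle replicate 1 had the lower value of its pair for 30. In hPPARa female vehicle livers the highest value was spread over all 3 libraries, with 10, 18 and 11 members, and likewise in hPPARa male PFOA livers, with 13, 18 and 8.

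Other genes of Kupffer cells were followed in a list of 15 with none of the members. Their median log2 difference between KO and hPPARa livers under PFOA was 0.44. Of these, 7 were called higher in KO livers and none lower, where 7.13% and 7.79% of all genes were called. They included Axl, a receptor that helps clear dying cells, at 0.64 ± 0.12 (SE, edgeR adjusted p = 0.000827), Hmox1, which degrades haem and is also made by other cells, at 0.92 ± 0.22 (SE, edgeR adjusted p = 0.00984), Il18bp, which neutralizes interleukin 18, at 0.55 ± 0.14 (SE, edgeR adjusted p = 0.012), and Fcna, a ficolin that recognizes bacterial sugars, at 0.43 ± 0.12 (SE, edgeR adjusted p = 0.0153). On vehicle the median of the 15 was -0.14, and 1 was called, lower in KO livers, where 1.76% of all genes were. It was Fcna, at -0.55 ± 0.13 (SE, edgeR adjusted p = 0.0245). With PFOA in KO livers 3 of the 15 rose, where 7.41% of all genes did. They were Siglec1 at 1.05 ± 0.23, Sdc3 at 0.60 ± 0.13 and Hmox1 at 1.10 ± 0.30 (SE, highest edgeR adjusted p = 0.0451). With PFOA in hPPARa livers 1 fell, where 9.76% of all genes did. This was Fcna, at -0.90 ± 0.11 (SE, edgeR adjusted p = 0.000109). Males were lower than females in hPPARa livers for 6 of the 15, among them Sdc3, Axl, Fcna and Msr1, where 1.94% of all genes were.

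Csf1, the growth factor of macrophages, was higher in KO than in hPPARa livers under PFOA, at a log2 difference of 0.71 ± 0.14 (SE, edgeR adjusted p = 0.0016). It had 15.7, 17.6 and 16.6 CPM in KO males and 22.2, 18.9 and 19.9 CPM in KO females, against 13.5, 9.28 and 12.4 CPM in hPPARa males and 9.39 and 10.4 CPM in hPPARa females. It was 1 of 3 called among 20 tested growth and transcription factors, where 14.9% of all genes were called, 7.13% higher and 7.79% lower. The others were lower: Id1 at -1.66 ± 0.22 and Cebpb at -0.82 ± 0.20 (SE, highest edgeR adjusted p = 0.0106). Cebpb was lower in KO livers on vehicle too, at -1.80 ± 0.24 (SE, edgeR adjusted p = 0.000451). It was the only 1 of the 20 called there, where 3.77% of all genes were. With PFOA in hPPARa livers Cebpb had a log2 fold change of -0.61 ± 0.12 (SE, edgeR adjusted p = 0.00306). Csf2rb, the shared receptor chain of several haematopoietic cytokines, rose with PFOA in KO livers by 0.87 ± 0.17 and in hPPARa livers by 1.13 ± 0.19 on the log2 scale (SE, highest edgeR adjusted p = 0.00466). Of 17 tested chemokines and cytokines, 5 were higher in KO than in hPPARa livers under PFOA, where 7.13% of all genes were. They included Ccl6 at 1.06 ± 0.19, Ccl24 at 1.13 ± 0.22 and Cxcl10 at 1.39 ± 0.31 (SE, highest edgeR adjusted p = 0.00525). Ccl9 rose with PFOA in both genotypes, by 1.61 ± 0.16 in KO livers and 1.39 ± 0.20 in hPPARa livers (SE, highest edgeR adjusted p = 0.000541). In KO livers 3 of 15 tested chemokines and cytokines rose and none fell, where 7.41% and 6.36% of all genes did. In hPPARa livers 1 of 13 rose and 4 fell, where 12.8% and 9.76% did. Those that fell included Cxcl14 at -2.87 ± 0.55, Il18 at -0.66 ± 0.10 and Ccl6 at -0.57 ± 0.18 (SE, highest edgeR adjusted p = 0.0333).

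The complement proteases that act with C1q come mainly from hepatocytes. Under PFOA 4 of the 10 tested partners of C1q were higher in KO livers, C2 at 0.87 ± 0.09, C1ra at 0.64 ± 0.09, C3 at 0.41 ± 0.12 and C1s1 at 0.39 ± 0.08 (SE, highest edgeR adjusted p = 0.0284). For this and the other lists of this paragraph under PFOA, 7.13% of all genes were called higher and 7.79% lower. Unlike the C1q chains, partners differed on vehicle too, where 2% of all genes were called higher: C2 by 0.76 ± 0.10, C1ra by 0.52 ± 0.10 and C3 by 0.53 ± 0.14 (SE, highest edgeR adjusted p = 0.0338). Of 6 subunits of the phagocyte oxidase other than Cybb, Rac2 was higher in KO livers under PFOA, at 0.58 ± 0.16 (SE, edgeR adjusted p = 0.0155). Of 15 tested genes of Fc receptor and Tyrobp signalling none was higher and 2 were lower, Ptpn6 at -0.47 ± 0.07 and Fcgr2b (SE, edgeR adjusted p = 0.000163 for Ptpn6), and of 10 partners of MHC class II and 11 monocyte genes none was called.

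Markers of other blood cells were followed beside the members. The calprotectin subunit S100a8 had 88.2, 327 and 258 CPM in KO males and 138, 126 and 89.2 CPM in KO females on PFOA, against 8.53, 2.87 and 4.21 CPM in hPPARa males and 6.80 and 3.59 CPM in hPPARa females on PFOA, a log2 difference of 4.96 ± 0.37 (SE, edgeR adjusted p = 3.36e-07). In vehicle livers it had 0.254 to 0.536 CPM in KO and 0.121 to 0.271 CPM in hPPARa. Its partner in neutrophils, S100a9, had at most 2.04 CPM in any liver, and the neutrophil antigen Ly6g at most 0.067 CPM. Of the 13 neutrophil markers 11 averaged under 1 CPM and 6 under 0.1 CPM, and S100a8 alone carried most of their sum: without it the other 12 summed to 2.35 to 5.58 CPM in KO and 1.44 to 4.67 CPM in hPPARa livers on PFOA. Of 11 tested B and plasma cell markers 1 was higher in KO livers on PFOA, where 7.13% of all genes were, Bank1 at 0.71 ± 0.21 (SE, edgeR adjusted p = 0.0241). Of 11 T and NK cell and 10 dendritic cell markers none was called. Their summed levels in KO and hPPARa livers on PFOA were 19.6 to 32.2 and 17.7 to 45.6 CPM for B and plasma cells, 4.61 to 12.3 and 4.27 to 7.03 CPM for T and NK cells, and 27.5 to 40.5 and 27.6 to 43.5 CPM for dendritic cells. The part of these cells in the members' levels was not tested.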

How the data were processed

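Bulk liver RNA of 20 libraries was sequenced, per the labels' protocols. The authors deposited raw counts per gene, with no normalization, in 1 table per genotype. The submitters' processing notes name build GRCm39 and, without roles, STAR 2.5.3 and featureCounts 1.6.1, besides cutadapt 1.15, edgeR 3.36.0, FastQC 0.11.5 and R 4.1.0. How reads shared by related genes such as the MHC class II family were counted is not stated.

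Here CPM were computed from the deposited counts with TMM factors of 0.914 to 1.08 over all 20 libraries. Tests used edgeR 4.0.16 in R 4.3.3, with its filter on low counts by group, robust quasi-likelihood fits, sex and exposure as terms within a genotype, 1 model of all 20 libraries for contrasts between genotypes, and Benjamini-Hochberg adjustment over all genes tested at a threshold of 0.05. DESeq2 1.42.0, other scaling, no filter, other designs, a replicate block and leaving out libraries were alternatives. The tests were checked on simulated data. All members are accounted for, with values per library for members called or of the resident and recruited lists. Of the other lists, at most 4 called genes per list and comparison with a mean of at least 1 CPM are named. The members and lists were chosen with earlier results of these data known. Libraries with the same replicate number showed no strong shared deviation: over 22 pairs the correlation of deviations was -0.13 to 0.11, with 1 pair over 0.1. Deviations were taken from means of groups of 2 or 3 libraries, so this check cannot exclude that the numbers pair the libraries. Replicates of a group differed beyond counting noise, with a chi-square per gene of 7.94 to 46.4.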

Additional observations from a re-analysis of the deposited data

Results flagged for a closer look

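Fcna, a ficolin of Kupffer cells that is not among the 39 members, changed with PFOA by a different amount in the genotypes: the log2 effect in KO livers minus that in hPPARa livers was 0.98 ± 0.18 (SE, edgeR adjusted p = 0.0103). It had 15.4, 14.7 and 20.4 CPM in KO male PFOA livers and 19.9, 21.2 and 25.0 CPM in KO female PFOA livers, against 17.5, 17.1 and 12.6 CPM in KO male vehicle livers and 20.9 CPM in the KO female vehicle liver. In hPPARa livers it had 8.83, 11.3 and 11.49 CPM in PFOA males and 18.6 and 20.3 CPM in PFOA females, against 19.5 and 23.3 CPM in vehicle males and 28.3, 33.9 and 36.1 CPM in vehicle females. The hPPARa groups did not overlap in either sex.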

How the results depend on the processing

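No member changed direction past the threshold under any alternative run. Counts of members called that moved by over 1.5 times were as follows. Without the filter on low counts, the count was 19 for PFOA in KO livers, 12 in KO males, 5 in KO females, 5 in hPPARa females, 3 in hPPARa males, 4 for KO against hPPARa on vehicle, 11 for the PFOA effect by genotype, 14 for sex in KO livers and 3 for sex by genotype. DESeq2 called 6 for the PFOA effect by genotype and 3 for sex in KO livers. With a replicate block, although the numbers showed no strong pairing, the count was 9 for KO against hPPARa under PFOA, 0 on vehicle, 2 for PFOA in KO livers, 9 in hPPARa females and 1 in hPPARa males. Leaving out the 3 KO livers that carry other-sex transcripts, it was 2 for PFOA in KO livers and 0 on vehicle. The joint fit gave 3 for PFOA in hPPARa livers, equal weight of the sexes gave 3 for PFOA in KO livers, and the 9 vehicle libraries alone gave 0 on vehicle. The share of all genes called is not given beside these counts, or beside those below from leaving out each library. The counts are thus not read as a stronger or weaker result for the members, and the cause of the moves was not tested.

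Leaving out each library in turn gave 2 to 12 calls for PFOA in KO livers, 1 to 7 in KO males, 0 to 1 in KO females, 2 to 8 for PFOA in hPPARa livers, 0 to 4 in hPPARa females, 0 to 1 in hPPARa males, 9 to 19 for KO against hPPARa under PFOA, 0 to 2 on vehicle, 0 to 4 for the PFOA effect by genotype, 0 to 4 for sex in KO livers, 10 to 17 for sex in hPPARa livers, and 0 for PFOA by sex in hPPARa livers and for sex by genotype. Resident minus recruited differences, PFOA minus vehicle, ranged from 1.21 to 1.68 in KO females, -0.04 to 0.27 in KO males, -0.20 to 0.05 in hPPARa females and -0.89 to -0.03 in hPPARa males, and KO minus hPPARa under PFOA from -0.30 to 0.17 in females and 0.16 to 0.49 in males. Low counts limit Marco, Folr2, Cx3cr1, Gpnmb, Itgam, Trem2 and Ms4a7, and the single KO female vehicle library limits every contrast within KO females.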
